A study of Mus musculus with 18 samples.

Results

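Complement components and their inhibitors were described across knockdown of Rnf185 in MPC3 mouse prostate cancer cells. The group was chosen by symbol: C3, C1ra, C1s1, C2, C4b, Cfb, Serping1 and Cd55, which are 8 of the 47643 genes in the deposited count table. All 8 matched an identifier in that table. The series holds 18 polyadenylated RNA libraries in 3 groups of 6: control cells with the label plko, cells with the short hairpin shRNF185.1 and cells with the short hairpin shRNF185.3. A short hairpin RNA is expressed in the cell and lowers the messenger RNA it matches, and both hairpins were directed at Rnf185, a ubiquitin ligase gene of the endoplasmic reticulum. All libraries came from the MPC3 line, and the labels name neither a further treatment nor the time after the hairpins were introduced. The labels place replicates 1 and 2 of every group in batch 1, replicates 3 and 4 in batch 2, and replicates 5 and 6 in batch 3. They do not say whether the replicates were separate cultures, so p-values measure the spread between these libraries, which may be technical.

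Complement is a cascade of plasma and membrane proteins. In the classical pathway C1q binds its target and the proteases C1r and C1s are activated in turn, and C1s then cleaves C4 and C2 to form an enzyme that cleaves C3. Factor B takes the place of C2 in the alternative pathway. The C1 inhibitor, a serpin encoded by Serping1, inactivates C1r and C1s, and the membrane protein Cd55 (decay-accelerating factor) speeds the loss of the enzymes that cleave C3. The liver supplies most of the plasma proteins, while many other cell types, cancer cells included, also express C3, C1r and C1s.

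Sequences upstream of the members were available from RefSeq (GRCm38.p6) for 4 of the 8: C3, C1ra, C1s1 and Cd55. The windows shown run from 250 bases before the RefSeq start to 50 bases into the gene, 300 bases in all, and are written 5′ to 3′ on the strand of the gene. They are the 3 members with the highest levels, and C1rl is added because it lies beside C1ra. Capitals mark matches on either strand to the motifs searched.
C3, chr17:57228087-57228386, minus strand: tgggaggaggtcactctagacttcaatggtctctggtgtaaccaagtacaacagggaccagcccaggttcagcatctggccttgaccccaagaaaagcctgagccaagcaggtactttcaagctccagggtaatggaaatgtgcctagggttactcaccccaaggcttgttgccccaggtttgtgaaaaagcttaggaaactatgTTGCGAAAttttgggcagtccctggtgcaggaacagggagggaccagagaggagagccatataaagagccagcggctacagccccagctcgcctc
C1ra, chr6:124512371-124512670, plus strand: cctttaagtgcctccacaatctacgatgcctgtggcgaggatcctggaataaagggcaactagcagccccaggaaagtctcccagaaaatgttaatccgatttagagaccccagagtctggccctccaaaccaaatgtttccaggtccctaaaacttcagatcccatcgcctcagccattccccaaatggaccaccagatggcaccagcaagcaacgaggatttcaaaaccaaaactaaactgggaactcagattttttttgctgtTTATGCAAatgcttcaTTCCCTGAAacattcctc
C1s1, chr6:124542310-124542609, minus strand: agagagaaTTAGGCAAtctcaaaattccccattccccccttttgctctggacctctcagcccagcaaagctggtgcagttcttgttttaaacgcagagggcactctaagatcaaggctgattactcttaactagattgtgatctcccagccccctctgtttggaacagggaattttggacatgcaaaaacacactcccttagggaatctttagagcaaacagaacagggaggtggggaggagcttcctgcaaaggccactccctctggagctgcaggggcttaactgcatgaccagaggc
C1rl, chr6:124492863-124493162, plus strand: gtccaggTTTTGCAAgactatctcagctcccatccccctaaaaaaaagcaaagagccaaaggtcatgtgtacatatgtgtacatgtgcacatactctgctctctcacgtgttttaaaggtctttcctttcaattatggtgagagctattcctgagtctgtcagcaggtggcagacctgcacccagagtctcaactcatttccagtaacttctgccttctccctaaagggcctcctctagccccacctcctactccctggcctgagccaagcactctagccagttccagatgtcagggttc

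Motifs were searched on both strands. They were the interferon-stimulated response element (GAAA, any pair of bases, then GAAA), the gamma-activated site (TTCNNNGAA), the kappaB site by its usual degenerate consensus, and a short C/EBP core (TTGCNNAA). Windows of 6 complement genes were searched: the 4 shown and those of Cd55 and Cr1l. For C1s1 2 windows were available, and only the one nearest the annotated gene start was searched and shown. A match to the C/EBP core was found in 4 of the 6, those shown, and thus in 3 of the 4 members with a window, and 10.8% of the 32851 promoter windows of that length held one. The windows of Cd55 and Cr1l held no match to any of the motifs. Counted from the RefSeq start, the match TTGCGAAA in C3 began at base -45 and TTATGCAA in C1ra at base 17. In C1s1 TTAGGCAA began at base -242, and in C1rl TTTTGCAA began at base -243. For C1ra the annotation used below (GENCODE M21) starts the gene at 124512405, inside this window and before the RefSeq start. Positions in C1ra, and which bases count as upstream, therefore hold for the RefSeq start only. The C1ra window also held the gamma-activated site TTCCCTGAA from base 33, a motif present in 8.3% of all windows. Neither the interferon-stimulated response element (3.44% of all windows) nor the kappaB site (8.46%) was found in any of the 6 windows. No motif overlapped another, and a match describes the letters only.

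Read depth and the labels were examined first. Totals ranged from 22027395 to 43379662 counts per library. Rnf185 stood at 33.6 to 38.4 CPM (counts scaled to library size) in the control libraries and at 5.19 to 6.80 CPM in the hairpin libraries, which separates control from knockdown but does not tell the hairpins apart. The epithelial keratin genes Krt8 and Krt18 and the prostate gene Hoxb13 were expressed, whereas the luminal prostate gene Pbsn (0 counts) and the epithelial gene Epcam (at most 7 counts in a library) were at or near 0. Among 9 macrophage markers, C1qa, C1qb, C1qc and Tyrobp had 0 counts in every library, and the summed level of the list was 2.50 to 5.16 CPM in control, 1.84 to 2.97 CPM under shRNF185.1 and 2.3 to 3.45 CPM under shRNF185.3. The 4 hepatocyte markers summed to at most 0.166 CPM in any library. The sum of the 6 epithelial markers, mostly Krt8 and Krt18, moved with the groups. It was 1460 to 1765 CPM in control, 904 to 1175 CPM under shRNF185.1 and 973 to 1041 CPM under shRNF185.3. Of the 4 tested (Cdh1, Krt8, Krt18 and Krt14), 4 and 3 were called lower, and Krt14 was not called under shRNF185.3. Cdh1 changed most (log2 -1.91 under shRNF185.1 and -2.13 under shRNF185.3). Epcam and Krt5, with at most 7 and 3 counts in a library, were not tested. The 6 fibroblast markers summed to 3025 to 3987 CPM in control, 3521 to 3902 CPM under shRNF185.1 and 3451 to 3939 CPM under shRNF185.3, mostly Vim. Of these Pdgfrb was called higher with both hairpins (log2 0.36 and 0.58). Pdgfra was called higher under shRNF185.3 (0.46) but not under shRNF185.1 (-0.00055). Dcn was called lower under shRNF185.1 (-2.11) but not under shRNF185.3 (-0.50, edgeR adjusted p 0.182). It was higher under shRNF185.3 than under shRNF185.1 (log2 1.62, edgeR adjusted p 0.000672). Vim was not called. Thy1 and Lum, with at most 2 and 16 counts in a library, were not tested. The macrophage marker Cd68 was called lower under shRNF185.1 (log2 -0.68, edgeR adjusted p 0.0117). The 4 endothelial markers summed to at most 0.744 CPM in any library. The part of these markers in the results was not tested, and in bulk RNA fewer cells of a type and less RNA per cell cannot be told apart.

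The members fell into a measurable and a barely detected set. C3, C1ra, C1s1 and Cfb passed the filter on low counts, and C2, C4b, Serping1 and Cd55 did not. With shRNF185.1, 3 of the 4 tested members were called higher than control and 0 lower, by edgeR's quasi-likelihood test at an adjusted p under 0.05. Of all 14309 genes 28.9% were called in this comparison, with 14.6% higher and 14.3% lower. Under the other hairpin, shRNF185.3, 2 of the 4 were called higher and 0 lower, against a background of 27.3%, with 14.2% higher and 13.1% lower. For the mean of both hairpins 3 were called higher, against 32.9% of all genes (16.1% higher and 16.8% lower). The median log2 fold change of the 4 tested members was 0.86 under shRNF185.1 and 0.81 under shRNF185.3, and over all genes it was -0.02 in both comparisons. Both comparisons use the same 6 control libraries. The members were chosen with earlier results of these data known, so these counts and medians describe the members and do not test them against the background.

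**Figure D1:**
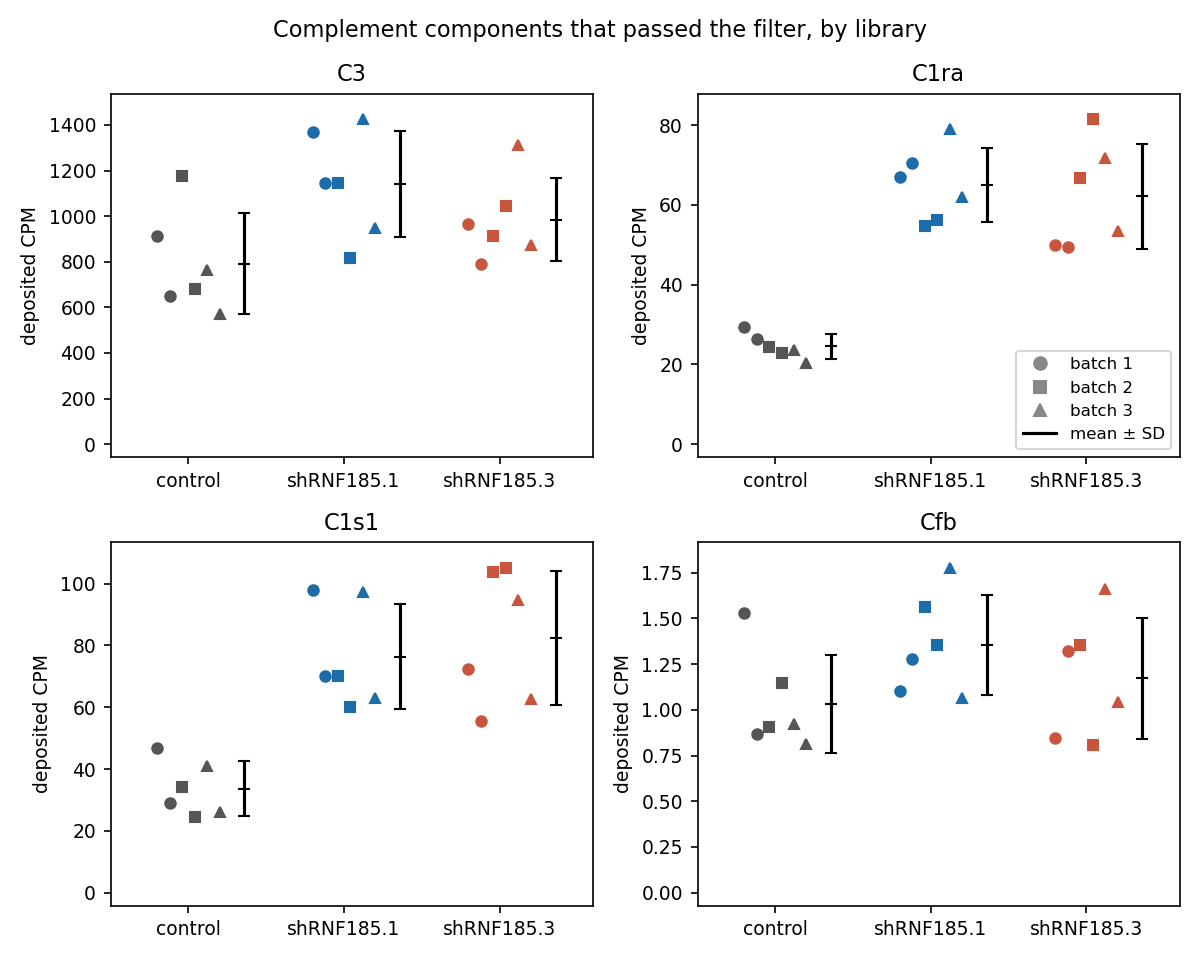
Deposited CPM of C3, C1ra, C1s1 and Cfb in each of the 18 libraries, by group, with the batch as the marker shape and the mean ± SD (n = 6) beside each group. For C1ra and C1s1 all hairpin libraries lie above the highest control library (29.4 and 46.9 CPM), while the groups overlap for C3 and Cfb.

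The proteases of the C1 complex showed the clearest difference. C1ra (ENSMUSG00000055172), which encodes C1r, occupies bases 124512405 to 124523443 of chromosome 6 (GRCm38, plus strand) and has 2981 exonic bases. Its lowest, median and highest levels were 20.4, 24.0 and 29.4 CPM in control, 54.7, 64.6 and 79.1 CPM under shRNF185.1, and 49.6, 60.1 and 81.4 CPM under shRNF185.3. No library of either hairpin reached down to the controls. The mean rose from 24.5 ± 3.07 CPM to 64.9 ± 9.23 and 62.2 ± 13.2 CPM (± SD, 6 libraries per group). The fold change was 2.65 under shRNF185.1 (log2 1.41, SE 0.13, edgeR adjusted p 1.71e-07) and 2.54 under shRNF185.3 (log2 1.35, SE 0.13, edgeR adjusted p 3.28e-07). Within batches 1, 2 and 3 C1ra exceeded control on the log2 scale by 1.31, 1.23 and 1.67 under shRNF185.1 and 0.85, 1.64 and 1.49 under shRNF185.3. C1ra shares 42.4% of its 75-base windows with its paralog C1rb and the gene model Gm18840, so the split of reads between them is uncertain. C1rb held 30 counts summed over all 18 libraries, and with the 3 genes summed the log2 fold changes were 1.41 and 1.35.

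C1s1 (ENSMUSG00000038521), which encodes C1s, the protease that C1r activates, lies 6901 bases from C1ra on the opposite strand, from 124530345 to 124542359, and has 3129 exonic bases. Its lowest, median and highest levels were 24.5, 31.6 and 46.9 CPM in control, 59.9, 70.2 and 97.8 CPM under shRNF185.1, and 55.4, 83.5 and 105.0 CPM under shRNF185.3. Again no hairpin library overlapped the controls. The mean was 33.6 ± 8.89 CPM in control, 76.4 ± 16.9 CPM under shRNF185.1 and 82.3 ± 21.6 CPM under shRNF185.3 (± SD, 6 libraries per group). These correspond to a 2.27-fold rise under shRNF185.1 (log2 1.18, SE 0.19, edgeR adjusted p 0.000127) and a 2.46-fold rise under shRNF185.3 (log2 1.3, SE 0.19, edgeR adjusted p 5.5e-05). Within the 3 batches the log2 difference was 1.17, 1.16 and 1.26 under shRNF185.1 and 0.78, 1.85 and 1.24 under shRNF185.3. C1s2, its paralog, shares 13.0% of the C1s1 windows, and summing them gave 1.18 and 1.29.

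Per exonic base, C1ra stood somewhat below C1s1 in every control and shRNF185.3 library. The ratio of C1ra to C1s1, each in CPM per exonic base, was 0.79 ± 0.15 in control, 0.91 ± 0.13 under shRNF185.1 and 0.81 ± 0.10 under shRNF185.3 (± SD, 6 libraries per group). It ran from 0.61 to 0.98 in control, 0.72 to 1.05 under shRNF185.1 and 0.68 to 0.94 under shRNF185.3, so the groups overlapped. The third gene of the same stretch, C1rl, encodes a C1r-like protease and ends 1761 bases before C1ra. It rose from 4.15 ± 1.09 CPM to 8.49 ± 1.67 CPM under shRNF185.1 and 9.31 ± 1.65 CPM under shRNF185.3 (± SD, 6 libraries per group). Its log2 fold changes were 1.03 (SE 0.17, edgeR adjusted p 0.000156) and 1.17 (SE 0.17, edgeR adjusted p 4.63e-05), and neither hairpin group overlapped the controls.

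C3 (ENSMUSG00000024164), the component on which all 3 activation pathways converge, was by far the most abundant member. It occupies bases 57203970 to 57228136 of chromosome 17 (minus strand), has 5143 exonic bases, and none of its 75-base windows occurs in another gene. Its lowest, median and highest levels were 569, 722 and 1176 CPM in control, 818, 1145 and 1424 CPM under shRNF185.1, and 792, 941 and 1313 CPM under shRNF185.3. The groups overlapped: 2 of 6 shRNF185.1 libraries and 1 of 6 shRNF185.3 libraries lay above the highest control, which was replicate 3. The mean was 792 ± 221 CPM in control, 1141 ± 234 CPM under shRNF185.1 and 984 ± 182 CPM under shRNF185.3 (± SD, 6 libraries per group).

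The C3 difference was smaller than that of the C1 proteases and less firm. With shRNF185.1 the level was 1.44-fold that of control (log2 0.53, SE 0.17, edgeR adjusted p 0.025), which passed the threshold. With shRNF185.3 it was 1.24-fold (log2 0.32, SE 0.17, edgeR adjusted p 0.178), which did not, and the mean of both hairpins gave 0.42 (edgeR adjusted p 0.0364). Within batches 1, 2 and 3 the log2 difference was 0.70, 0.11 and 0.82 under shRNF185.1 and 0.19, 0.13 and 0.70 under shRNF185.3. The call under shRNF185.1 was lost without batch 1 (edgeR adjusted p 0.221), without batch 3 (0.176), and when any of 5 libraries was left out: control replicate 2, 4 or 6, or shRNF185.1 replicate 1 or 5 (0.0506 to 0.0646). Without control replicate 3 the difference under shRNF185.3 became 0.46 and passed (edgeR adjusted p 0.0319).

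**Figure D2:**
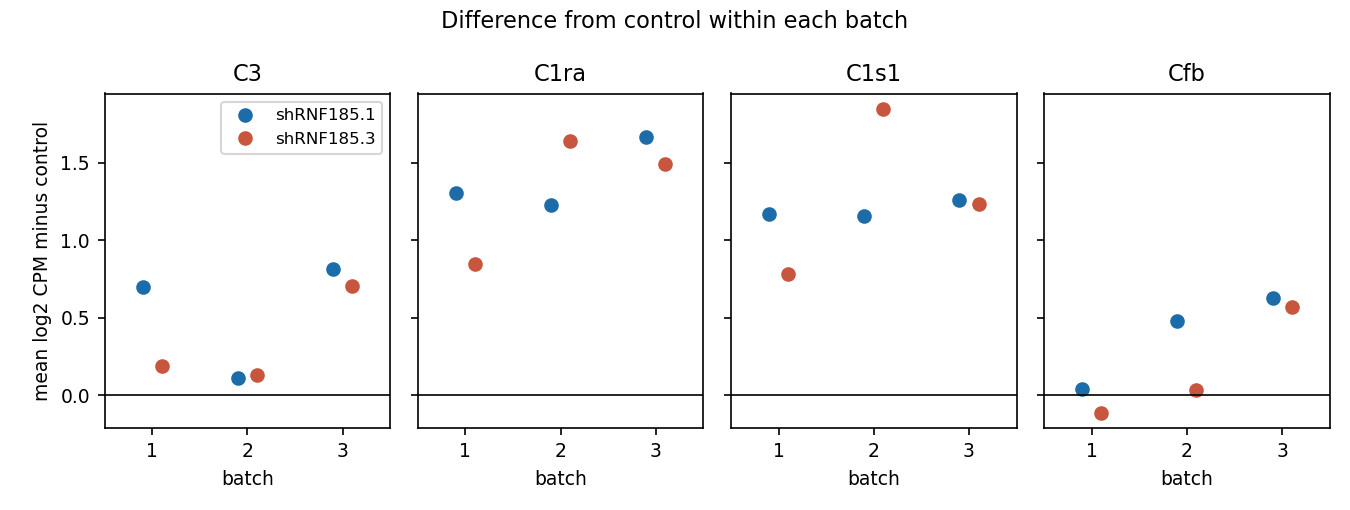
Difference in mean log2 CPM from the 2 control libraries of the same batch, for each hairpin (2 libraries per point), by batch. C1ra and C1s1 lie above 0 in every batch (0.78 to 1.85), C3 lies near 0 in batch 2 (0.11 and 0.13), and Cfb ranges from -0.11 to 0.62.

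Cfb (ENSMUSG00000090231) encodes factor B, the protease of the alternative pathway, and lies on chromosome 17 from 34856374 to 34862518. Its lowest, median and highest levels were 0.816, 0.916 and 1.53 CPM in control, 1.06, 1.32 and 1.78 CPM under shRNF185.1, and 0.809, 1.18 and 1.66 CPM under shRNF185.3. These levels rest on 19 to 49 counts per library, and the groups overlapped widely. Against control Cfb differed on the log2 scale by 0.39 (SE 0.20, edgeR adjusted p 0.157) under shRNF185.1 and 0.18 (SE 0.20, edgeR adjusted p 0.557) under shRNF185.3, neither of which passed. Of its 75-base windows 69.9% occur in Gm20547, a gene model that runs through both Cfb and C2 and that had counts in only 2 libraries (3.27 and 2.24). Cfb, C2 and Gm20547 summed gave 0.27 (edgeR adjusted p 0.23) and 0.11 (edgeR adjusted p 0.661).

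**Figure D3:**
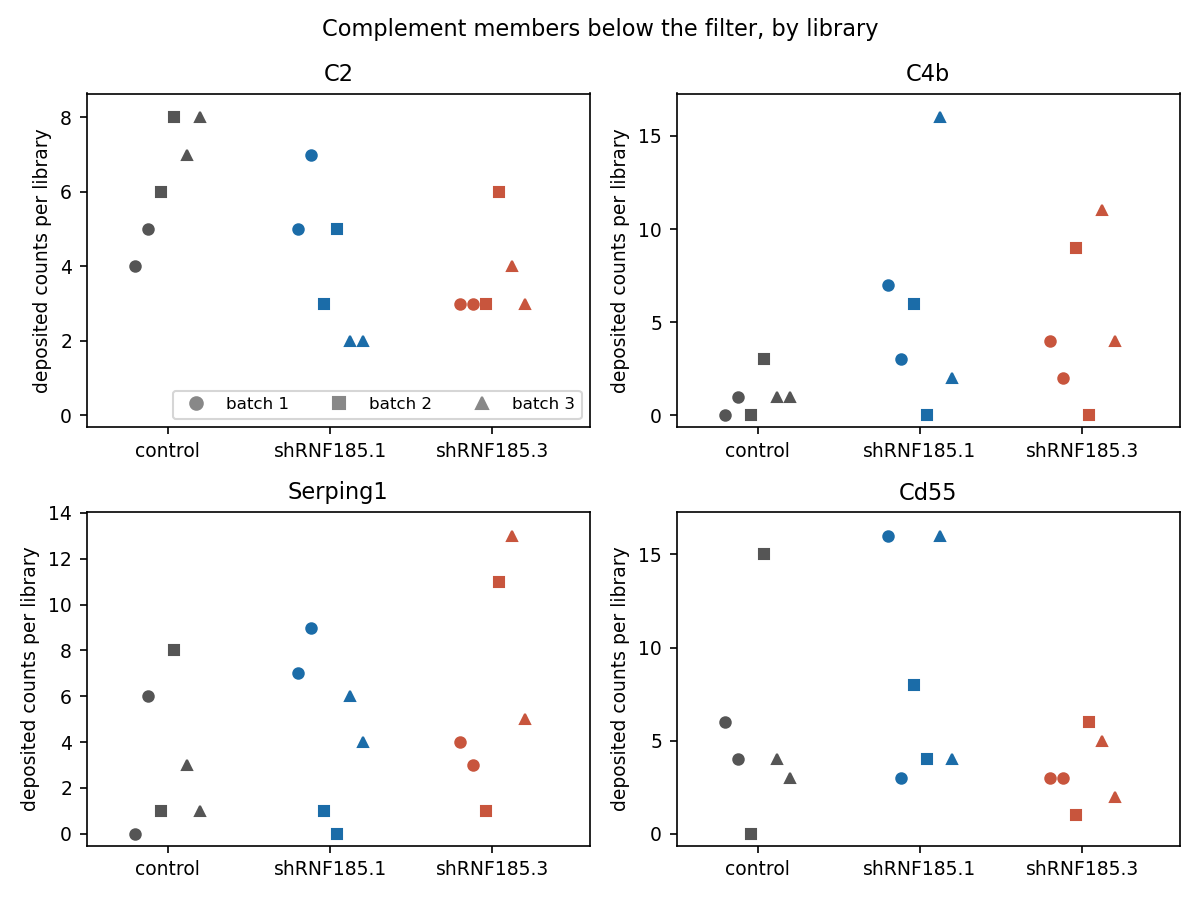
Deposited counts per library of C2, C4b, Serping1 and Cd55, by group, with the batch as the marker shape. No library exceeds 16 counts for any of the 4 genes, and 0 counts occur for C4b, Serping1 and Cd55.

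C2 and C4b, which C1s cleaves, were close to the limit of detection. C2 (ENSMUSG00000024371), a protease precursor, lies 85 bases from Cfb on chromosome 17 from 34862604 to 34898265. Its lowest, median and highest counts were 4, 6.5 and 8 in control, 2, 4 and 7 under shRNF185.1, and 3, 3 and 6 under shRNF185.3. Pooled over each group this was 0.204 CPM (95% exact Poisson interval 0.145 to 0.281), 0.148 CPM (0.0945 to 0.220) and 0.139 CPM (0.0870 to 0.210), so the intervals overlapped. Here and below, such intervals cover counting error only. They treat counts already adjusted for batch as if they were reads counted, so they are approximate. In an edgeR fit with no filter beyond a summed count of 1 the log2 fold changes were -0.48 (adjusted p 0.473) and -0.57 (adjusted p 0.383).

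C4b (ENSMUSG00000073418) encodes C4 and lies on chromosome 17 from 34728380 to 34743882. Its lowest, median and highest counts were 0, 1 and 3 in control, 0, 4.5 and 16 under shRNF185.1, and 0, 4 and 11 under shRNF185.3. In each hairpin group 5 of 6 libraries had a higher CPM than the highest control, and replicate 4, the remaining library, had 0 counts. In counts the groups overlapped more. The highest control, replicate 4, had 3 counts (0.0701 CPM), and shRNF185.3 replicate 2 lay above it with 2 counts (0.0715 CPM). Under shRNF185.1 replicates 2 and 6 had 3 and 2 counts. The pooled level was 0.0323 CPM (95% exact Poisson interval 0.0118 to 0.0703) in control, 0.209 CPM (0.145 to 0.292) under shRNF185.1 and 0.189 CPM (0.128 to 0.270) under shRNF185.3. Without the filter the edgeR log2 fold changes were 2.57 (SE 0.85, adjusted p 0.0477) under shRNF185.1 and 2.46 (SE 0.86, adjusted p 0.0669) under shRNF185.3. C4b shares 22.7% of its windows with its paralog C4a, so the split of reads between them is uncertain. C4a held 296 counts over the control libraries, against 6 for C4b, so a sum of both follows C4a and does not bear on C4b. The mean of C4a was 1.60 ± 0.218 CPM in control, 1.23 ± 0.202 CPM under shRNF185.1 and 1.33 ± 0.263 CPM under shRNF185.3, and it was not called (log2 -0.38 and -0.26, edgeR adjusted p 0.0588 and 0.199).

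The inhibitors were also barely detected. Serping1 (ENSMUSG00000023224), on chromosome 2 from 84765387 to 84775444, had 0, 2 and 8 counts in control as its lowest, median and highest, 0, 5 and 9 under shRNF185.1, and 1, 4.5 and 13 under shRNF185.3. Its pooled level was 0.102 CPM (95% exact Poisson interval 0.0615 to 0.160), 0.166 CPM (0.109 to 0.241) and 0.233 CPM (0.164 to 0.322). By this approximate measure of counting error the intervals of control and shRNF185.3 did not overlap, but the libraries did. The edgeR fit without the filter gave 0.70 (adjusted p 0.56) and 1.18 (adjusted p 0.299).

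Cd55 (ENSMUSG00000026399), on chromosome 1 from 130439027 to 130462744, had 0, 4 and 15 counts in control, 3, 6 and 16 under shRNF185.1, and 1, 3 and 6 under shRNF185.3. Its pooled level was 0.172 CPM (95% exact Poisson interval 0.118 to 0.243), 0.314 CPM (0.233 to 0.412) and 0.126 CPM (0.0771 to 0.195). Among the shRNF185.1 libraries replicates 1 and 5 held 16 counts each and the others 3 to 8. The edgeR fit without the filter gave log2 fold changes of 0.93 (adjusted p 0.299) and -0.38 (adjusted p 0.744) against control.

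The hairpins were compared with each other to see whether the members responded alike. By edgeR 0 of the 4 tested members differed at an adjusted p under 0.05, and 0 had an unadjusted p under 0.05. In the background 14.7% of the 14309 genes were called: 7.72% stood higher under shRNF185.3 and 6.94% lower. On the log2 scale shRNF185.3 minus shRNF185.1 came to -0.06 (SE 0.12) for C1ra, 0.11 (SE 0.19) for C1s1, -0.21 (SE 0.17) for C3 and -0.21 (SE 0.20) for Cfb. DESeq2 also called 0 of them. For Cd55 the fit without the filter gave -1.31 (edgeR adjusted p 0.22), which did not pass. When the libraries of each group and batch were summed, Cd55 passed the filter and was called lower under shRNF185.3, at -1.3 (edgeR adjusted p 0.0323), with the higher counts of shRNF185.1 resting mainly on its replicates 1 and 5.

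Levels of different genes were compared per length. In control, C3 stood at 154 ± 43.1 CPM per kilobase of exon, C1s1 at 10.7 ± 2.84, C1ra at 8.22 ± 1.03 and Cfb at 0.365 ± 0.0948 (± SD, 6 libraries per group). The ranges of C1s1 and C1ra overlapped across the control libraries, while within each of these libraries C1ra was the lower, at a ratio of at most 0.98. C3 stood above both and Cfb below. C3 ranked at number 319 of 15327 genes by this measure in control, at 239 under shRNF185.1 and at 269 under shRNF185.3. C1ra moved from rank 5704 to 2635 and 2733, and C1s1 from 4767 to 2338 and 2136.

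**Figure D4:**
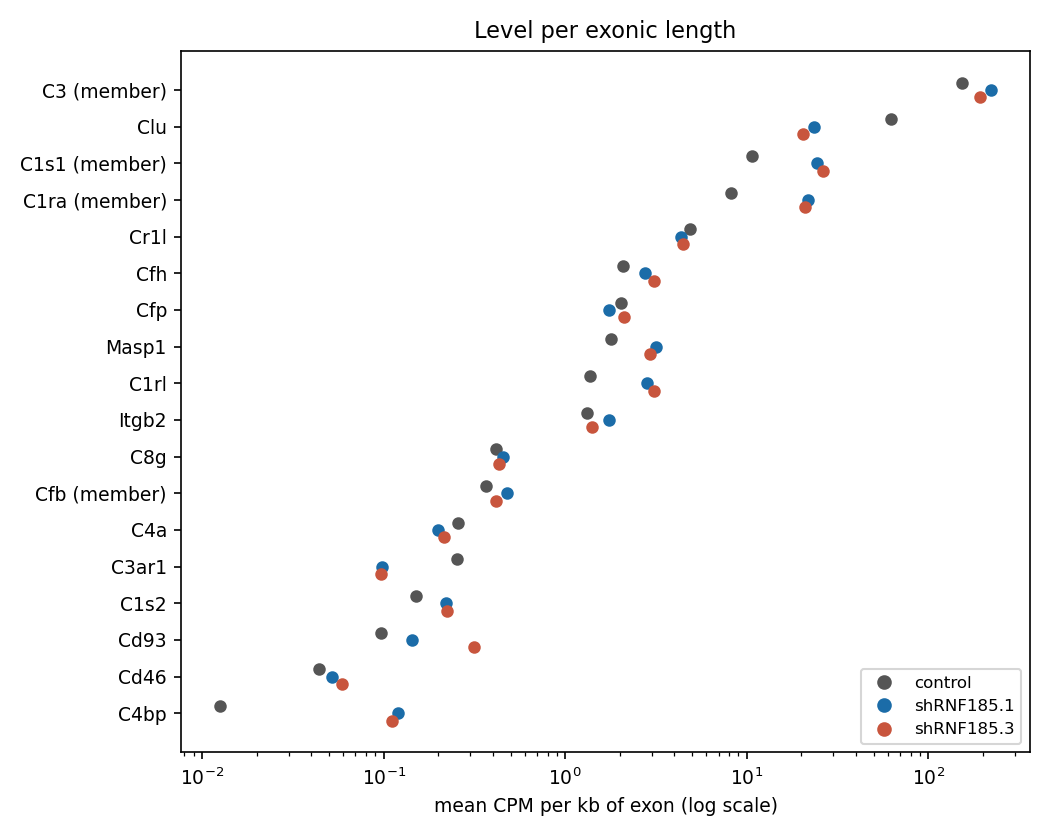
Mean CPM per kilobase of exon (log scale) of the 18 complement genes that passed the filter, by group (n = 6), ordered by the control level. C3 is highest in every group (154 in control), and Clu, at 62.0 in control, stands near C1ra and C1s1 with both hairpins (23.4 and 20.5).

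The genes with the most similar profiles over the 18 libraries were found by the root mean square difference of log2 CPM, each gene centred on its own mean. For C1s1 they were Gbp9, an interferon-induced GTPase gene (0.18), and then C1rl (0.22) and C1ra (0.23), the genes beside it, against a median of 0.70 over 11696 candidate genes. For C1ra they were Dbp, a circadian transcription factor gene (0.16), Spon2, a matrix protein gene (0.19), and Osmr, the oncostatin M receptor gene (0.20), against a median of 0.71. For C3 they were Xdh, the xanthine dehydrogenase gene (0.14), Slpi, a peptidase inhibitor gene (0.16), and Trim2, a ubiquitin ligase gene (0.16), against a median of 0.41.

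A wider list of 49 other complement genes, also chosen with earlier results of these data known, was then described by role. Of these 14 passed the filter, 12 had 0 counts in every library, and the remaining 23 averaged at most 3.33 counts per library. With shRNF185.1, 4 were called higher (C1rl, Masp1, Cd93 and C4bp) and 3 lower (Clu, C3ar1 and Cr1l), where 14.6% of all genes were called higher and 14.3% lower. With shRNF185.3 those 4 were again called higher, and 2 (Clu and C3ar1) lower, where the shares over all genes were 14.2% and 13.1%. C4bp passed the filter only through the hairpin libraries, in which it is high, so its place in these counts is no support.

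Among the genes that start the cascade, all C1q chains had 0 counts and the lectin pathway protease gene Masp2 had 7 counts in all. Masp1, whose products include a lectin pathway protease, ran from 10.7 to 23.7 CPM in control, 20.9 to 40.0 CPM under shRNF185.1 and 22.5 to 35.4 CPM under shRNF185.3. On the log2 scale it rose by 0.83 (SE 0.19, edgeR adjusted p 0.00239) and 0.71 (SE 0.19, edgeR adjusted p 0.0078). In batch 2 the difference under shRNF185.1 was -0.09, and the call was lost with either hairpin without batch 1 (edgeR adjusted p 0.0885 and 0.0525) or without batch 3 (0.0795 and 0.123). Of the terminal components only C8g, a lipocalin subunit of C8, passed the filter, at 0.621 ± 0.126 CPM in control, 0.681 ± 0.118 CPM under shRNF185.1 and 0.644 ± 0.0865 CPM under shRNF185.3, and it was not called. C6, C8a and C8b had 0 counts, Hc (C5) had 8 and C9 had 25 in all libraries together.

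The inhibitors of the wider list moved in both directions. Clu, which encodes clusterin, a secreted chaperone that also blocks the terminal complex, fell from 213 ± 72.0 CPM to 80.3 ± 17.8 and 70.5 ± 20.7 CPM (± SD, 6 libraries per group). This was a log2 difference of -1.41 (SE 0.22, edgeR adjusted p 9.25e-05) under shRNF185.1 and -1.59 (SE 0.22, edgeR adjusted p 2.8e-05) under shRNF185.3, and the control libraries, from 124 CPM up, did not overlap either hairpin group. Within batches 1, 2 and 3 the difference was -1.46, -1.98 and -0.66 under shRNF185.1 and -1.83, -2.27 and -0.60 under shRNF185.3. C4bp, a cofactor for the breakdown of C4b, had 0 to 5 counts in control, 14 to 29 under shRNF185.1 and 10 to 37 under shRNF185.3. Its pooled level was 0.0807 CPM (95% exact Poisson interval 0.0452 to 0.133) in control, 0.811 CPM (0.679 to 0.962) and 0.763 CPM (0.633 to 0.912), and the ranges of counts in control and in either hairpin group did not overlap. Because of the filter, its call is not used as support. Cr1l, the rodent membrane inhibitor Crry, changed little: its mean was 50.6 ± 3.59 CPM in control, 44.8 ± 1.60 CPM under shRNF185.1 (log2 -0.18, edgeR adjusted p 0.0164) and 46.0 ± 3.29 CPM under shRNF185.3 (edgeR adjusted p 0.0687).

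Among the receptors, C3ar1, the receptor of the C3 fragment C3a, fell from 1.09 ± 0.182 CPM to 0.420 ± 0.109 and 0.418 ± 0.119 CPM (± SD, 6 libraries per group). It had 26 to 43 counts per control library and 7 to 17 per hairpin library. Both hairpins gave a log2 difference of -1.36 (SE 0.20, edgeR adjusted p 4.33e-05 and 4.76e-05). Cd93, a membrane protein once described as a C1q receptor, was at 0.649 ± 0.136 CPM in control, 0.962 ± 0.193 CPM under shRNF185.1 and 2.11 ± 0.308 CPM under shRNF185.3. Its rise on the log2 scale was 0.56 (edgeR adjusted p 0.0187) and 1.70 (edgeR adjusted p 4.08e-07), and the former was lost without batch 2 (0.223), without batch 3 (0.082) and without the filter (0.0536). In the direct comparison of the hairpins 2 of the 14 were called, a share close to the 14.7% of all genes, and both were higher under shRNF185.3: Cd93, by 1.14 (SE 0.16, edgeR adjusted p 6.15e-05), and Cfp, the gene of properdin, by 0.30 (SE 0.10, edgeR adjusted p 0.0464). The Cfp call was lost under 23 of 32 alternatives (adjusted p 0.03 to 0.28).

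**Figure D5:**
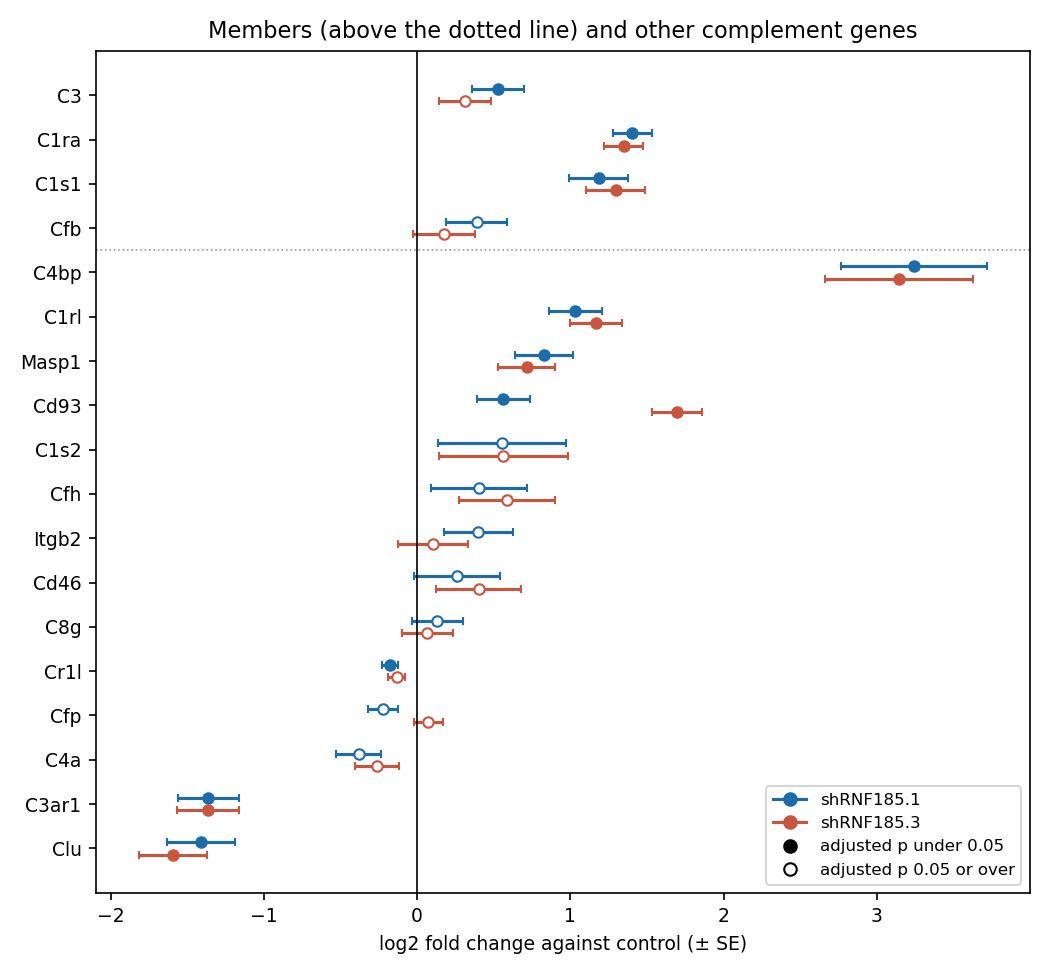
Log2 fold change against control (± SE) of the 18 complement genes that passed the filter, for each hairpin, with filled points at an edgeR adjusted p under 0.05. C1ra and C1s1 lie between 1.18 and 1.41, and Clu and C3ar1 are the farthest to the left, at -1.36 to -1.59.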

How the data were processed

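Polyadenylated RNA of 18 MPC3 libraries was sequenced with single-end reads of 75 bases after a strand-specific preparation, per the labels' protocols. The submitters' processing notes name cutadapt 2.3, STAR 2.7.0d, RSEM 1.3.1 and the build mm10 (GRCm38). The authors deposited expected counts adjusted by ComBat-Seq, per the table's name, of which 0.466% carry a fraction; values were rounded before fitting. ComBat-Seq adjusts counts for batch, so part of the spread between batches was removed before deposit, and whether it was given the groups is not given in the sources used here. The deposited CPM are a normalised signal: their column sums run from 969986 to 1026394, and each column is the counts times a constant within a relative spread of 1.5e-06. The CPM table stops at genes summing to 90 counts; below that, counts were multiplied by that constant. A floor of 3 counts is 0.0701 to 0.133 CPM.

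Counts were fitted in R 4.3.3 with edgeR 4.0.16 (filterByExpr with a minimum count of 10, TMM scaling, a mean per group over all 18 libraries, quasi-likelihood F tests, Benjamini-Hochberg adjustment over 14309 genes, calls at an adjusted p under 0.05). Alternatives used DESeq2 1.42.0 and limma 3.58.1. The code was tested on simulated data. Within-batch values and profiles are log2 CPM with a prior count of 2. Positions, exonic lengths and 75-base windows are from GENCODE M21, and symbols matched 99.1% of identifiers. The members, the wider list and the markers were chosen with earlier results of these data known. Some of the prostate markers are not reported here. Wider genes called in a comparison are named, with the 3 most similar genes (mean count of at least 50) per member the results turn on; untested genes named are examples chosen after their counts were seen. Over 45 pairs of libraries of a group, chi-square per gene was 7.64 to 84.4, so none looked like a duplicate.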

Additional observations from a re-analysis of the deposited data

Results flagged for a closer look

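A direct test found 2 of the 14 wider complement genes tested to differ between the hairpins, a share close to the 14.7% of all genes called in that comparison. Cd93 differed by 1.14 on the log2 scale (edgeR adjusted p 6.15e-05), was higher under shRNF185.3 in every batch (1.03, 1.10 and 1.14), and passed under all 31 alternatives that could be fitted for it. Cfp differed by 0.30 (edgeR adjusted p 0.0464), and this call was lost under 23 of 32 alternatives, with adjusted p-values from 0.03 to 0.28. Among 36 groups of 6 values (log2 CPM of the tested members and of the wider genes called), 0 held a library with a gap to its neighbour past Dixon's 95% critical value, where chance gives 1.8.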

How the results depend on the processing

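Each result was recomputed under up to 33 alternatives, of which summing genes that share sequence was chosen after seeing the data. C1ra and C1s1 were called higher with both hairpins under all 33, with log2 fold changes of 1.27 to 1.48 and 1.17 to 1.58 for C1ra, and 1.10 to 1.3 and 0.99 to 1.55 for C1s1. The number of members called was 2 to 4 under shRNF185.1, 2 to 3 under shRNF185.3, 2 to 4 for their mean, and 0 to 1 between the hairpins. The 1, with libraries of a group and batch summed, was Cd55. Without the filter C4b, with 6 counts over the control libraries, was among those called under shRNF185.1 (edgeR adjusted p 0.0477) and for the mean (0.0297). Cfb was called against control under none of its alternatives (lowest adjusted p 0.0512). For the mean of both hairpins the C3 call was lost with the batch covariate (adjusted p 0.0561), without batch 1 (0.173) or 3 (0.311), and without control replicate 2, 4, 5 or 6, shRNF185.1 replicate 1 or 5, or shRNF185.3 replicate 4 or 5 (0.0522 to 0.0984). The Cr1l call under shRNF185.1 was lost without batch 1 (0.214) or 3 (0.092), with summed libraries (0.0959) and with the GC and length offset (0.216). The Masp1 call under shRNF185.3 was also lost with summed libraries (0.0668).

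Among the tested members and the wider genes called, the directions that turned were of differences that had not passed: Cfb under shRNF185.3 without batch 3 (-0.045), and between the hairpins C1ra without batch 1 (0.12), without batch 3 (0.0011) and without shRNF185.1 replicate 5 (0.0059, in a range from -0.15 without single libraries), and C1s1 without batch 2 (-0.21). With a mean count of at least 50 the wider genes called numbered 4, 3 and 4 against control, since fewer genes were tested, and without batch 3 there were 4 under shRNF185.1. Between the hairpins 1 wider gene was called in place of 2 with library size alone, no filter, a mean count of at least 50, DESeq2, limma-voom, the replicate block, the batch covariate, the GC and length offset, summed libraries, and without batch 1, 2 or 3, and 1 to 2 without single libraries. The genes called over the whole table fell without batch 1 to 2207, 2120, 2672 and 753 in the 4 comparisons. They fell without batch 3 to 2501 for shRNF185.3 and 3106 for the mean, and without batch 2 to 1208 between the hairpins. Without batch 2 they rose from 4141 to 5119 for shRNF185.1 and from 4701 to 5411 for the mean, and went from 3906 to 3849 for shRNF185.3. The cause was not tested.

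With the replicate number as a replicate block, C1ra was at 1.40 and 1.34, C1s1 at 1.19 and 1.31 and C3 at 0.54 and 0.34, and the members called were 3, 2, 3 and 0. All genes called numbered 3811, 3578, 4304 and 1976. Same-numbered libraries of different groups deviated from their groups with a correlation averaging -0.0144 (18 pairs, 4 of them over 0.1), from -0.628 to 0.705. For other-numbered libraries it averaged 0.00183 (90 pairs, 35 over 0.1), from -0.779 to 0.781. The numbers were therefore not taken to pair the libraries, but the spread within groups had structure that the main fit left out. C3 in control stood at 914, 1176 and 765 CPM in replicates 1, 3 and 5, against 651, 679 and 569 CPM in replicates 2, 4 and 6. Its odd replicate was also the higher in each batch under shRNF185.1, and under shRNF185.3 except in batch 2. The cause was not tested. For C2, C4b, Serping1 and Cd55, at most 16 counts per library, depth limits what can be seen.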
